A study of Homo sapiens with 4 samples.

Results

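DNA mismatch repair corrects bases that are mispaired or slipped during replication. MutS homolog pairs find the error, MutL homolog pairs are then recruited to it, and an exonuclease removes the new strand so that it can be made again. MSH6 and MSH3 each join the same MutS partner, MSH6 for single mispairs and short loops and MSH3 for longer loops. PMS2, PMS1 and MLH3 each join the same MutL partner, and EXO1 is the exonuclease. Cells without mismatch repair gather changes in repeated sequence, a state called microsatellite instability that is common in one class of colorectal tumours. HCT116 is known as a mismatch-repair-deficient line and Caco-2 as a proficient one.

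The genes examined were MSH6, MSH3, PMS2, PMS1, MLH3 and EXO1, and their members were all PrimeView probe sets annotated to one of these symbols and to no other gene. The rule gave 17 of 49395 probe sets, 7 for PMS1, 4 for MLH3, 2 each for MSH6 and MSH3 and 1 each for PMS2 and EXO1. The 4 groups were HCT116 with BORIS siRNA, HCT116 with control siRNA, Caco-2 with BORIS siRNA and Caco-2 with control siRNA. Both are established colorectal cancer lines, the siRNA was applied for 3 days with a lipid reagent, and each group held 1 array of total RNA. BORIS, encoded by CTCFL, is related to the insulator protein CTCF and is made mainly in the testis and in some tumours.

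Values are log2 expression values, and a gene is represented by the one of its probe sets with the highest mean over the 4 arrays. A probe set counted as expressed if it reached the median of all probe sets (5.46 to 5.48) on at least 1 of the arrays compared. Background was set on each array at the 95th percentile of the probe sets for olfactory receptors, and lay at 4.80 to 5.15. Of the 17 probe sets, 11 were expressed on at least 1 array, 10 lay above background on all 4 arrays, and 4 lay below it on all 4. With 1 array a group, a difference between siRNAs within a line has no p-value, and precision is limited by how few arrays there were. Differences over both lines were tested with limma on all 4 arrays, with 1 residual degree of freedom. For each gene this is the part of the siRNA difference that the lines do not share, and not a spread between replicates. The gene fit added 5.49 prior degrees of freedom from all expressed genes. The p-values and intervals thus rest mostly on other genes, and the spread between replicates was not measured.

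None of the 7 CTCFL probe sets reached the array median on any array, and none lay above background on all 4. The brightest read 4.93 with BORIS siRNA and 5.07 with control siRNA in HCT116, and 5.09 and 5.07 in Caco-2, so the target gives no check of the siRNA labels. CTCF differed between siRNAs by -0.33 in HCT116 and -0.03 in Caco-2. Of 12 colorectal epithelial markers, 7 were expressed in HCT116 and 10 in Caco-2. EPCAM read 12.2 and 12.1 in HCT116 and 12.8 and 12.8 in Caco-2. Of the 10, 7 were lower and 3 higher in HCT116 by limma, where 19.8% of all expressed genes were lower and 19.4% higher. LGALS4 read 3.75 and 4.03 in HCT116, against 11.2 and 11.4 in Caco-2, and VIL1 2.77 and 3.68, against 9.33 and 9.57. CDH1 was higher in HCT116, at 9.01 and 9.61 against 7.64 and 7.01. CDX1 and GPA33 were expressed in neither line. All 6 fibroblast markers lay below background on every array, as did PTPRC, the general marker of white blood cells. HBB and LYZ were the expressed ones among 5 blood cell markers measured, HBB in both lines and LYZ in Caco-2 alone. LYZ read 4.68 and 4.13 in HCT116, against 13.1 and 13.3 in Caco-2. Of 4 endothelial markers, 1 was expressed. The 24 poly-A spike-in controls averaged 8.44 on the HCT116 array with BORIS siRNA and 7.57 on that with control siRNA, against 6.71 and 6.78 on the Caco-2 arrays. The difference between 3' and 5' control probe sets, a sign of RNA quality, stayed between -0.0048 and 0.041 for GAPDH on the 4 arrays. For beta-actin it was 1.47 and 1.34 on the HCT116 arrays, against 0.97 and 1.05 on the Caco-2 arrays, so it moved with the line. Between siRNAs, the spike-in mean differed by 0.87 in HCT116 and by -0.07 in Caco-2. The part of the spike-in and 3' to 5' values in the line differences and in the siRNA differences given here was not tested.

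**Figure D1:**
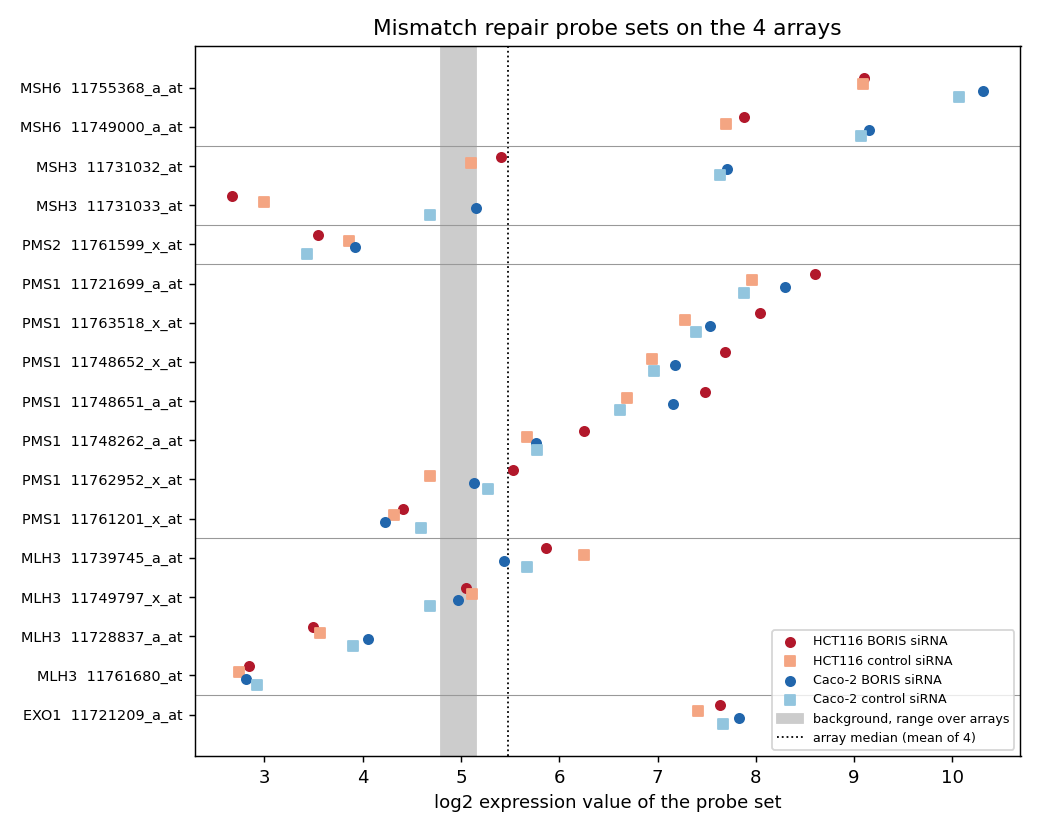
Log2 values of the 17 probe sets (rows, grouped by gene) on the 4 arrays, with circles for BORIS siRNA and squares for control siRNA. The grey band spans the background level of the arrays (4.80 to 5.15) and the dotted line is the mean array median. Both MSH6 rows and both MSH3 rows have the HCT116 points left of the Caco-2 points, and the PMS2 row lies left of the band.

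The first question was how the 2 lines differed in the MutS genes that recognise the mismatch. Both were lower in HCT116. MSH3 read 5.41 with BORIS siRNA and 5.10 with control siRNA in HCT116, against 7.70 and 7.63 in Caco-2. The HCT116 values lay at or just above the background of their arrays, 5.15 and 5.09, and below the array median, so MSH3 was expressed by the rule above in Caco-2 and not in HCT116. The fitted difference, HCT116 minus Caco-2, was -2.42 with a standard error of 0.19 (limma, adjusted p = 0.00024). This estimate is 5.34-fold lower in HCT116, with an unadjusted 95% interval of -2.88 to -1.95 in log2. As the HCT116 side lay close to background, the size of the fold is uncertain. The difference was -2.30 among the arrays with BORIS siRNA and -2.54 among those with control siRNA. Because this probe set passed the filter through Caco-2 alone, it could enter the test only by being high there, and without a filter the estimate was the same and the call held.

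The other MSH3 probe set, 11731033_at, was dimmer. It read 2.67 and 2.99 in HCT116, below background on both arrays, and 5.15 and 4.69 in Caco-2, where the array with BORIS siRNA alone lay above background. The HCT116 value minus the Caco-2 value was -2.48 with BORIS siRNA and -1.69 with control siRNA, but no fold is given because it was not expressed and the bright side lay near background.

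MSH6 is carried by 2 probe sets, which gave close to the same difference. The brighter, 11755368_a_at, read 9.10 with BORIS siRNA and 9.09 with control siRNA in HCT116, against 10.3 and 10.1 in Caco-2. The other, 11749000_a_at, read 7.88 and 7.69 in HCT116, against 9.15 and 9.07 in Caco-2. On both, each HCT116 array lay below each Caco-2 array, as for 35.1% of expressed genes. The fit gave a difference of -1.09 with a standard error of 0.17 (limma over genes, adjusted p = 0.0033), or 2.14-fold lower in HCT116, and for the second probe set -1.32 with a standard error of 0.18 (limma over probe sets, adjusted p = 0.00081). Lower values in HCT116 were common on these arrays, since 19.8% of 11165 expressed genes passed the same test in that direction, 39.2% passed in either, and 22.5% of expressed probe sets passed as lower. Among all of these genes, 9.1% had a line difference as low as that of MSH6 or lower, and 2.38% one as low as that of MSH3 or lower.

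The start of MSH6 is shown because the gene passed the line test on each of its probe sets. The RefSeq window of 250 bases upstream of its first start (GRCh38.p14, chr2:47782895-47783144, plus strand) is 81.2% G and C. Capitals mark 5 matches to GGGCGG, the GC box, and 1 to CCAAT, the CCAAT box, each on either strand.
MSH6: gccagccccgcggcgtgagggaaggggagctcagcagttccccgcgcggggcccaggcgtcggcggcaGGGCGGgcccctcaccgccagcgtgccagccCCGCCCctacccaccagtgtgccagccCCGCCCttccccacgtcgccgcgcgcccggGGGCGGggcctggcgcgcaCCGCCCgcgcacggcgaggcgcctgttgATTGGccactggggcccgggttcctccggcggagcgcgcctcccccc
Of 35116 RefSeq windows of this length, 42.6% held GGGCGG and 32% held CCAAT. The letters CCCTC, from which CTCF takes its name, matched 2 times in the MSH6 window on either strand and stood in 66.6% of all windows. A match is a description of the letters and not a bound site.

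The MutL genes and EXO1 did not pass the test between the lines. PMS1 read 8.60 and 7.96 in HCT116, against 8.30 and 7.88 in Caco-2, and the groups overlapped. Its fitted line difference was 0.19 with a 95% interval of -0.24 to 0.62 (limma, adjusted p = 0.44). MLH3, whose product also acts in meiotic crossing over, read 5.87 and 6.26 in HCT116, against 5.44 and 5.67 in Caco-2. Both HCT116 arrays lay above both Caco-2 arrays, as for 36% of expressed genes. The MLH3 difference of 0.51 had a 95% interval of 0.0019 to 1.02 before adjustment and did not pass (limma, adjusted p = 0.10). EXO1 read 7.63 and 7.41 in HCT116, against 7.83 and 7.66 in Caco-2. The groups came close without overlapping, with both HCT116 arrays below both Caco-2 arrays, as for 35.1% of expressed genes. The EXO1 difference was -0.22, with a 95% interval of -0.64 to 0.20 (limma, adjusted p = 0.36).

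**Figure D2:**
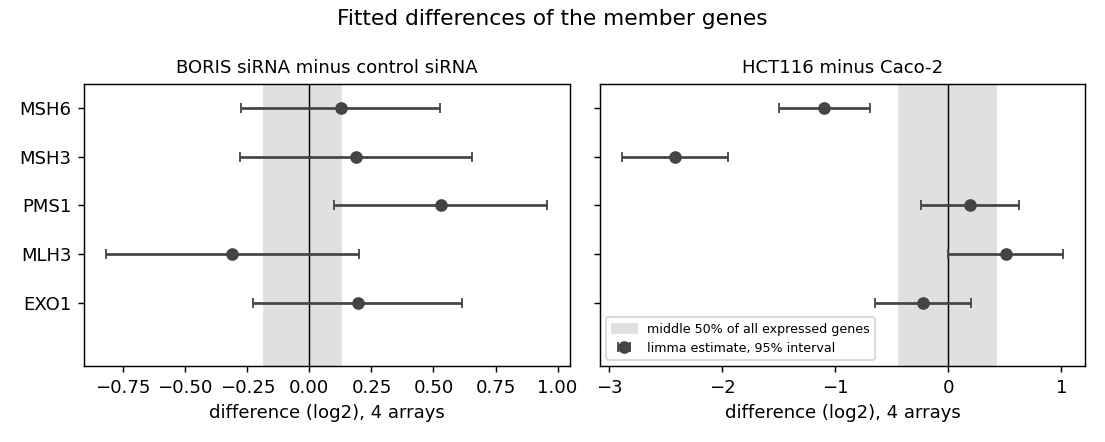
Limma differences of the 5 expressed genes over all 4 arrays, between siRNAs on the left and between lines on the right, in log2, with unadjusted 95% intervals and the middle 50% of all expressed genes in grey. MSH6 at -1.09 and MSH3 at -2.42 lie left of the grey band on the right, and PMS1 at 0.53 lies right of it on the left.

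The only probe set annotated to PMS2 alone, 11761599_x_at, read 3.55 and 3.86 in HCT116 and 3.92 and 3.43 in Caco-2. All 4 values lay below background, so no fold is given. PMS2 supplies the nuclease that nicks the strand to be removed, and its many pseudogenes share its sequence. Outside the rule, 2 probe sets are annotated to both PMS2 and its pseudogene PMS2CL. The brighter of them, 11743017_s_at, read 7.30 and 7.12 in HCT116, against 7.42 and 7.28 in Caco-2, and the other, 11747521_s_at, 5.43 and 5.09 against 5.38 and 5.51. Signal from the gene and from its pseudogene cannot be told apart on these probe sets. Among pseudogenes measured alone, PMS2CL and PMS2P9 lay below background on every array. PMS2P5 read 5.95 and 5.36 in HCT116, against 6.16 and 6.51 in Caco-2, a line difference of -0.68 (limma, adjusted p = 0.093).

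The second question was whether BORIS siRNA changed the repair genes. No member gene differed by 2-fold in either line. At 2-fold or more, 2.03% of 10631 expressed genes differed in HCT116 and 0.452% of 10389 in Caco-2, so few members would be past that size at the background rate. In HCT116 this was 62 genes higher and 154 lower with values as deposited, and 98 and 126 after quantile normalization. In the fit over both lines, 0 of 11165 genes passed the limma test (0% called), and 670 (6%) had an unadjusted p under 0.05. Of 25243 expressed probe sets, 0 passed either (0% called).

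PMS1 had the largest difference among the members. Its brightest probe set, 11721699_a_at, read 8.60 with BORIS siRNA and 7.96 with control siRNA in HCT116, a difference of 0.63 or 1.55-fold. In Caco-2 it read 8.30 with BORIS siRNA and 7.88 with control siRNA, a difference of 0.42 or 1.34-fold. Differences as high or higher were found for 3.64% of expressed genes in HCT116 and 6.89% in Caco-2. Over both lines the fit gave 0.53 with a standard error of 0.18, an unadjusted 95% interval of 0.098 to 0.96, an unadjusted p of 0.023 and a limma adjusted p of 0.77, so it did not pass.

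The probe sets of PMS1 were alike in direction in HCT116 and mixed in Caco-2. In HCT116 all 7 were higher with BORIS siRNA, the 6 expressed ones by 0.57 to 0.84 and 11761201_x_at, below background on every array, by 0.10. Of these 6, 5 were higher by 1.5-fold or more, where 4.94% of all expressed probe sets were. The largest difference, 0.84 on 11762952_x_at, comes from a probe set that reached the median only on the HCT116 array with BORIS siRNA. It read 5.53 there and 4.69 with control siRNA, so it could enter this count only by being high with BORIS siRNA. In Caco-2, 4 of 7 were higher and 3 lower, with differences from -0.37 to 0.54, and the mean over all 7 was 0.63 in HCT116 and 0.11 in Caco-2. These probe sets share transcripts and are not replicates of each other. 11748651_a_at, an expressed probe set, read 7.48 with BORIS siRNA and 6.69 with control siRNA in HCT116, against 7.16 and 6.62 in Caco-2. It had the smallest unadjusted p of the members for siRNA, 0.0071, and a limma adjusted p over probe sets of 0.69. 11763518_x_at read 8.04 and 7.28 in HCT116, a difference of 0.76, and 7.53 and 7.39 in Caco-2, a difference of 0.14. 11748652_x_at read 7.68 and 6.95 in HCT116, a difference of 0.74, and 7.18 and 6.96 in Caco-2, a difference of 0.22. For 11748262_a_at the differences were 0.57 in HCT116 and -0.01 in Caco-2. Whether the lines differ in this response could not be tested with 1 array a group. The spike-in controls also differed between the HCT116 arrays, by 0.87, and their part in the PMS1 values was not tested.

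**Figure D3:**
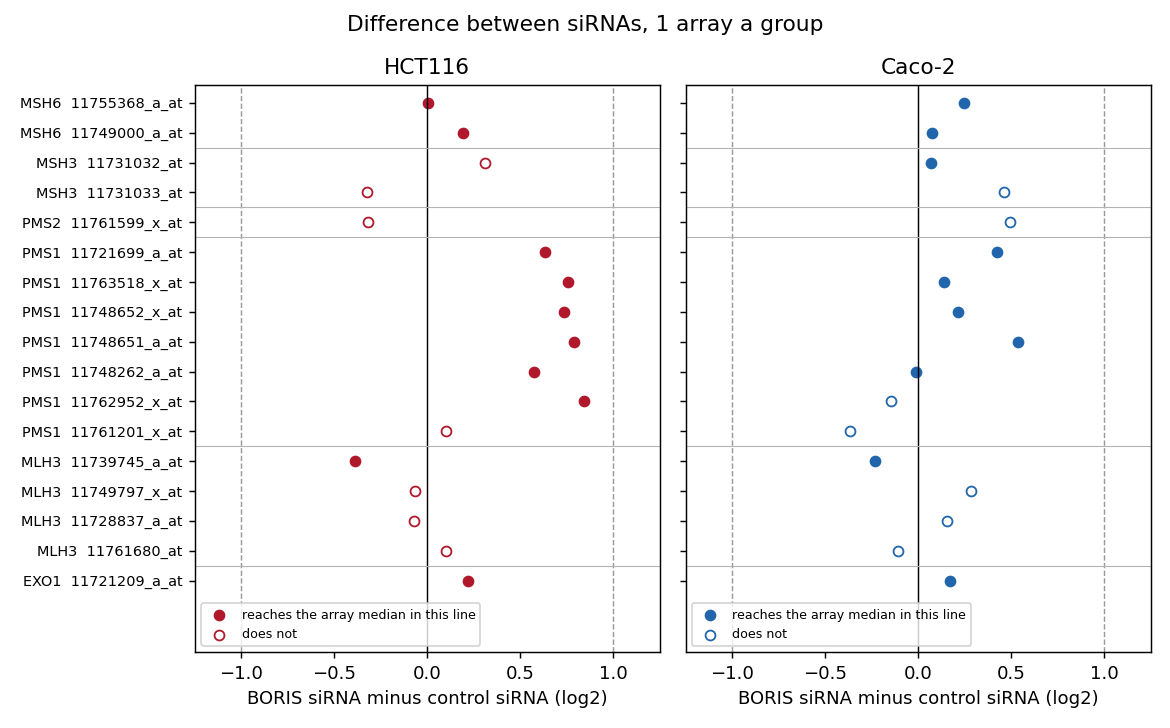
BORIS siRNA minus control siRNA (log2) for each of the 17 probe sets in HCT116 and Caco-2, with filled points for probe sets that reached the array median in that line and dashed lines at 2-fold. No point reaches 2-fold. The 6 filled PMS1 points of HCT116 lie between 0.57 and 0.84, and the 5 filled PMS1 points of Caco-2 between -0.01 and 0.54.

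The upstream windows of PMS1, MSH3 and PMS2 each overlap a second gene, and the start of PMS1 is shown here. ORMDL1, a regulator of sphingolipid synthesis, begins 110 bases away and runs the other way, so only those 110 bases are given (RefSeq, GRCh38.p14, chr2:189784340-189784449, plus strand). Capitals mark 2 CCAAT boxes, 1 on each strand, and there is no GGGCGG in this stretch.
PMS1: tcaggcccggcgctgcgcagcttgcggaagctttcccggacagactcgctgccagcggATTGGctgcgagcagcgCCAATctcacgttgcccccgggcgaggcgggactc
ORMDL1 has 2 expressed probe sets. The brighter read 8.37 with BORIS siRNA and 7.88 with control siRNA in HCT116, a difference of 0.48, and 8.54 and 8.57 in Caco-2, a difference of -0.03. The other differed by 0.0060 in HCT116 and 0.10 in Caco-2, so the probe sets of ORMDL1 disagreed in HCT116.

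The remaining members had smaller differences. MLH3 was the only expressed member gene with lower values under BORIS siRNA in both lines, with differences of -0.39 in HCT116 and -0.23 in Caco-2, a direction shared by 29.6% of expressed genes. The fit gave -0.31 for MLH3, with a 95% interval of -0.82 to 0.20 (limma, adjusted p = 0.77). The other 3 MLH3 probe sets were not expressed, and 2 of them lay below background on all arrays. As the mean of all 4 MLH3 probe sets, the differences were -0.11 in HCT116 and 0.03 in Caco-2. The fall in both lines thus rests on the brightest probe set. EXO1 differed by 0.22 in HCT116 and 0.17 in Caco-2, with a fitted 95% interval of -0.23 to 0.62 (limma, adjusted p = 0.81). MSH6 differed by 0.0057 in HCT116 and 0.25 in Caco-2 on its brighter probe set, and by 0.19 and 0.08 on the other. Its fitted 95% interval was -0.28 to 0.53 (limma, adjusted p = 0.88). MSH3 differed by 0.07 in Caco-2, where it was 0.27 as the mean of both probe sets, its fitted 95% interval was -0.28 to 0.65 (limma, adjusted p = 0.84), and it was not expressed in HCT116. EXO1, the brightest PMS1 probe set and both MSH6 probe sets had higher values with BORIS siRNA in each line, as did 24.5% of genes expressed on any array. MSH3 was also higher on its brighter probe set, by 0.31 in HCT116, where it was not expressed, and 0.07 in Caco-2. The intervals of MLH3, EXO1, MSH6 and MSH3 each include 0 and reach past 0.5 in size in one direction and not in the other.

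The steps after mismatch recognition were described through 17 excision and resynthesis factors, all expressed in both lines. None differed by 2-fold between siRNAs, and the medians were 0.019 in HCT116 and 0.0020 in Caco-2, against -0.048 and 0.0026 over all expressed genes. LIG1, the ligase that seals the repaired strand, had a difference of -0.47 in HCT116 and 0.03 in Caco-2. POLD1, the catalytic subunit of DNA polymerase delta, had -0.43 and 0.22, and RPA3, a subunit of the single-strand binding protein, 0.41 and -0.28.

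Between the lines, 4 of the 17 were lower in HCT116 and 0 higher by limma, where 19.8% of genes were lower and 19.4% higher. The share that was lower was thus near that over all expressed genes. The 4 were the subunits of DNA polymerase delta, the enzyme that refills the gap. They are named because each passed this test, and they were not tested as a set. POLD4 read 8.20 and 7.98 in HCT116, against 9.14 and 9.07 in Caco-2, a fitted difference of -1.01 (limma, adjusted p = 0.0054). POLD1 had a fitted difference of -0.82 (limma, adjusted p = 0.025), POLD2 of -0.80 (limma, adjusted p = 0.0065) and POLD3 of -0.76 (limma, adjusted p = 0.022). With no filter on dim probe sets POLD1 and POLD3 no longer passed, at adjusted p = 0.054 and 0.051.

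Of 5 accessory genes, 1 was higher and 1 lower in HCT116 by limma, a share like that over all expressed genes (19.4% higher and 19.8% lower). MCM8, a helicase subunit that works with MCM9, was lower, with a difference of -1.63 (limma, adjusted p = 0.00081). WDHD1, a replication fork protein, was higher by 0.69 (limma, adjusted p = 0.027), and no longer passed with no filter or with the mean of all probe sets (adjusted p up to 0.062). Between siRNAs, the spread over all expressed genes was wider in HCT116 (SD 0.40) than in Caco-2 (SD 0.27), and no accessory gene differed by 2-fold in either line. SETD2, the histone methyltransferase whose mark MSH6 binds, differed by -0.75 in HCT116 and 0.15 in Caco-2, MCM9 by -0.74 and 0.21, and WDHD1 by 0.75 and 0.56. Of the meiotic MutS homologs, MSH4 lay below background on every array, and MSH5 was not analysed here because its probe sets are annotated to a second gene as well.

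Glycosylases and direct repair genes, which serve the repair of damaged or mispaired bases by other routes, held genes past the line test in both directions. Of 12 expressed, 4 were lower and 3 higher in HCT116 by limma, where 19.8% of all expressed genes were lower and 19.4% higher. MBD4, a glycosylase for T paired with G, was lower, with a difference of -1.57 (limma, adjusted p = 0.00098). MGMT, which strips methyl groups from guanine, read 7.61 and 7.15 in HCT116, against 8.81 and 8.71 in Caco-2, a difference of -1.38 (limma, adjusted p = 0.0021). The other glycosylases that were lower were MPG at -1.10 and UNG at -0.78, and those higher were NEIL2 at 1.46 and NEIL3 at 0.77. APEX1, the endonuclease that cuts at the abasic site, was higher by 0.69. NEIL3 did not pass with no filter, at an adjusted p of 0.053. Between siRNAs the list had medians of 0.16 in HCT116 and -0.035 in Caco-2, with none at 2-fold. MUTYH, the glycosylase for A paired with oxidised G, differed by 0.68 in HCT116 and 0.04 in Caco-2, and TDG by 0.49 and 0.53.

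**Figure D4:**
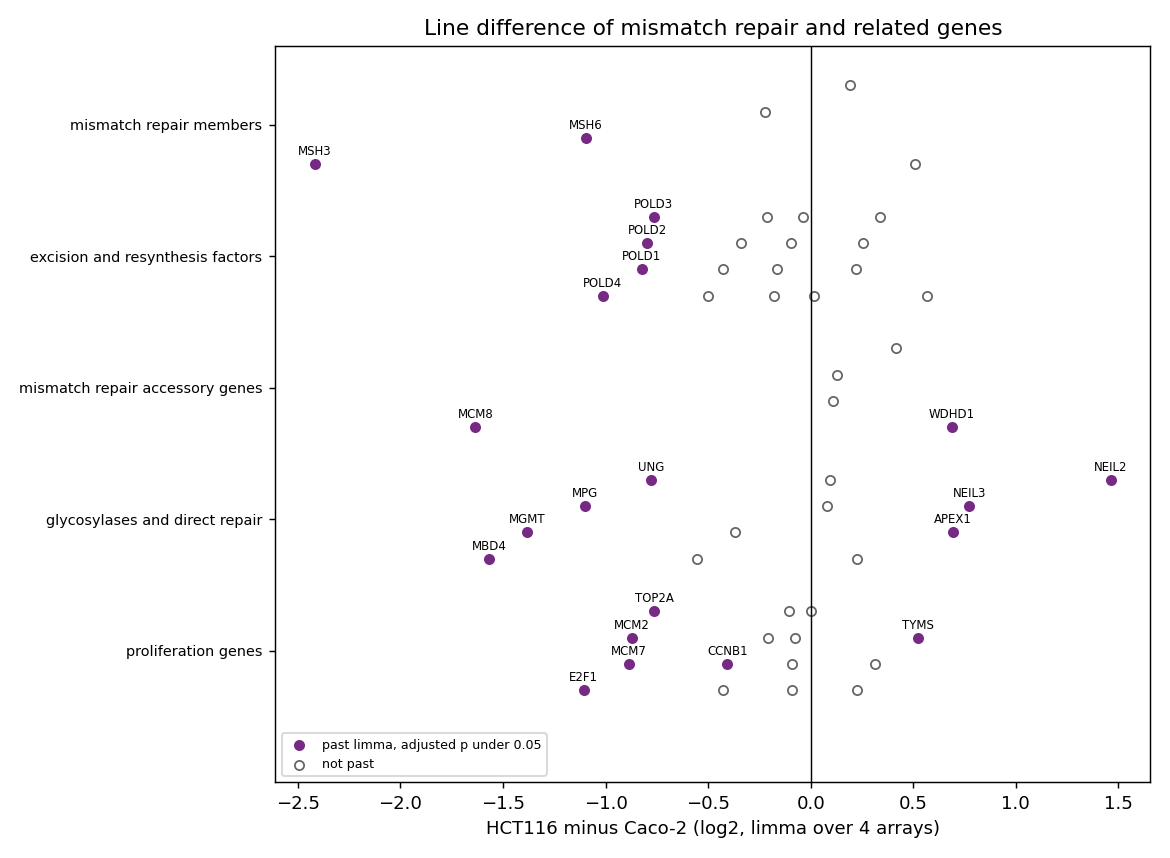
HCT116 minus Caco-2 (log2, limma over 4 arrays) for the expressed genes of 5 lists, with filled, named points for genes past the test and a small vertical offset so that points do not overlap. MSH3 at -2.42 and MSH6 at -1.09, and POLD1 to POLD4 at -1.01 to -0.76, lie on the side lower in HCT116.

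Since EXO1, MSH6 and the replication factors are used in dividing cells, 15 proliferation genes were set beside them. Of these, 5 were lower in HCT116 by limma, with E2F1 at -1.11, MCM7 at -0.89, MCM2 at -0.87, TOP2A at -0.76 and CCNB1 at -0.41, and TYMS was higher at 0.52, where 19.8% of all expressed genes were lower and 19.4% higher. The CCNB1 call (limma, adjusted p = 0.0495) ended under 3 other settings and the TYMS call under 1. Between siRNAs the medians were -0.12 in HCT116 and 0.0049 in Caco-2. The part of proliferation in the values of MSH6 and the polymerase delta genes was not tested.

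Genes with the profile nearest to each member were named by Euclidean distance between log2 values centred on their mean over the 4 arrays, among 11160 other expressed genes. The nearest to PMS1 were PUM3 at a distance of 0.012 and NDC80 at 0.058, which differed between siRNAs by 0.65 and 0.60 in HCT116 and by 0.43 and 0.37 in Caco-2. Nearest to MSH6 were HELZ at 0.022 and MAP3K2 at 0.040, with line differences of -1.11 and -1.08. MSH3 had no neighbour as close, with C1orf21 at 0.10 and LINC02562 at 0.19. MLH3 lay nearest to C12orf57 at 0.052 and GRTP1 at 0.054, and EXO1 to PGLS at 0.029 and NME4 at 0.031. With 4 arrays many genes lie close to any profile.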

How the data were processed

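The deposited table holds 1 log2 expression value per probe set and array for 4 PrimeView arrays; that the unit is log2 follows from the values, and the background correction, normalization and summarisation used by the authors are not stated in the labels or the file. Per the labels' protocols, biotin-labelled cRNA was made from total RNA with a 3' in vitro transcription kit. Probe sets were named by the platform annotation: 44988 were paired with 1 gene, 1832 with several and 2569 were not listed. Limma 3.58.1 in R 4.3.3 (lmFit, eBayes with trend) was fitted on all expressed genes or probe sets with siRNA and cell line as terms, calling an adjusted p (Benjamini-Hochberg) under 0.05. The method was tested on simulated data. Background used 368 olfactory receptor probe sets.

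The members and lists were chosen with earlier results of these data known. The text names every member, list genes past a test and otherwise up to 3 with the largest difference, and the 2 nearest profiles. ORMDL1 was added for its position. A list of 1 gene next to MSH3 was not analysed here. Alternatives were 2 other filters on dim probe sets, quantile and loess normalization, 16 added on the linear scale, averaging a gene's probe sets, omitting the _x_at and _s_at kinds, and eBayes without trend. Promoter windows are RefSeq's, of GRCh38.p14.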

Additional observations from a re-analysis of the deposited data

Results flagged for a closer look

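Some expressed probe sets and genes moved in opposite directions with BORIS siRNA in the 2 lines, at least 1.5-fold apart. The share of all genes or probe sets meeting this rule was not counted, so those named here are not shown to be unusual. A rise in both lines was seen for 24.5%, and a fall in both for 29.6%, of 11165 genes. Opposite directions were thus common. With 1 array a group, the difference between the lines was not tested. The PMS1 probe set 11762952_x_at differed by 0.84 in HCT116 and -0.14 in Caco-2, which are 0.99 apart, and it reached the array median on 1 array alone. PMS2P5, at 0.59 and -0.34, was 0.93 apart, and RPA3, at 0.41 and -0.28, was 0.69 apart. NTHL1, a glycosylase, at 0.12 and -0.47, was 0.59 apart. In the other direction, MCM9, at -0.74 and 0.21, stood at -0.95, SETD2, at -0.75 and 0.15, at -0.90, MKI67, at -0.46 and 0.31, at -0.77, and POLD1, at -0.43 and 0.22, at -0.65.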

How the results depend on the processing

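The fit with siRNA and line as terms compares the siRNAs within each line, and the labels give no replicate numbers for a further block. The lower values of MSH3 and MSH6 in HCT116 passed the limma test under all 9 settings run, with estimates of -2.42 to -2.02 and adjusted p up to 0.0013 for MSH3, and -1.21 to -1.03 and adjusted p up to 0.0075 for MSH6. PMS1, MLH3 and EXO1 passed neither test under any setting in which they had a value, and no member passed the siRNA test; for PMS1 its adjusted p was 0.29 to 0.87. The PMS1 difference in Caco-2 was 0.11 as the mean of all probe sets, against 0.42, and that of MSH3 ranged from 0.020 to 0.27, against 0.07. The MSH6 difference in HCT116 ranged from 0.0055 to 0.098. Over all genes, the siRNA test called 82 genes after quantile normalization and 57 after the loess correction, against 0, and over probe sets 93 and 196, against 0. At 2-fold, 216 genes in HCT116 became 108 with 16 added and 94 with probe sets averaged by gene, and 47 in Caco-2 became 17 and 27. The line test called 6922 probe sets, against 10441, with _x_at and _s_at left out, where fewer were tested. Signal over background limits PMS2, which was below it throughout, MSH3 in HCT116 and 3 of 4 MLH3 probe sets.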
